A study of Mus musculus with 13 samples.

Results

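The genes described here encode proteins of the complement system and of blood coagulation, together with their regulators and the fibrinolytic proteins. The set was a list of 39 gene symbols, and every symbol was found among the 18138 genes of the deposited intensity table. Of the 39 genes, 38 passed the filter on dim genes and were tested along with 8431 genes in all. The exception was Fgb.

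Complement is a cascade of plasma proteins in which surface recognition leads to cleavage of C3 and then to a pore, the membrane attack complex, in the target membrane. Coagulation is a parallel protease cascade that ends with thrombin turning fibrinogen into fibrin, and it is held in check by protein C, protein S and serpins. Hepatocytes make most of these proteins and release them into the blood, and several of the genes are induced in the acute phase response.

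Total RNA of archived frozen liver was measured on Illumina bead arrays, with 1 array per mouse and 13 mice in all. All mice were B6C3F1 males, a hybrid strain used in carcinogenicity tests, whose labelled age of 7 days is the age at which treatment began. In 4 mice (DCA), drinking water held dichloroacetic acid at 3.5 g/L for 10 weeks, followed by 90 weeks of deionized water. Dichloroacetic acid forms when drinking water is chlorinated. In 5 mice (PB), the water held 0.06% phenobarbital, a liver mitogen and tumour promoter in rodents, for 10 weeks, followed by 90 weeks of deionized water. The 4 control mice had deionized water alone. The samples were pieces of whole liver, so fewer cells of a type and less RNA per cell cannot be told apart, and the labels do not say whether a piece held a lesion. The question addressed was whether early exposure left differences in the expression of these genes long after it had ended.

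Mean raw intensity ran between 189 and 462 units over the arrays, and 7141 to 8458 genes had a detection p-value under 0.05. Pairs of arrays correlated with r between 0.92 and 0.99 over the genes tested. The mean log2 intensity of the 6 tested hepatocyte markers was 11.82 to 11.99 in DCA livers, 11.73 to 12.12 in PB livers and 11.70 to 11.99 in control livers, while Tat, also on that list, was not detected on any array. PB replicate 1 stood apart. Its hepatocyte mean of 12.12 was the highest of the 13, and its means for Kupffer cell markers (5.64), sinusoidal endothelial markers (5.50) and stellate cell markers (6.08) were the lowest. In control replicate 4 the mean of platelet markers was 7.24, against at most 5.35 on any other array. For many of the results that involve PB replicate 1, an estimate without it is given as well. Where none is given, the value may still depend on that array.

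No gene of the set differed between groups at a limma adjusted p under 0.05. The counts were 0 of 38 for PB against control (0.0830% of all tested genes passed), 0 of 38 for DCA against control (0% of all) and 0 of 38 for DCA against PB (0.107% of all). The F test across the groups also called 0 of the 38, where 0.107% of all genes passed. At an unadjusted p under 0.05, 4 of 38 genes (10.5%) differed between PB and control livers, beside 10.1% of all genes. All 4 were lower in PB livers, beside 5.43% of all genes, and 0 were higher, beside 4.66%. The same threshold gave 1 of 38 (2.63%) for DCA against control, beside 4.38% of all genes, and 7 of 38 (18.4%) for DCA against PB, beside 14.5% of all genes. The gene in DCA against control was lower in DCA livers (2.12% of all genes were lower and 2.25% higher). Of the 7 genes, 6 were higher in DCA than in PB livers, beside 7.20% of all genes, and 1 was lower, beside 7.32%. The F test gave 6 of 38 (15.8%), beside 11.3%.

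The direction of the estimates was uneven in the comparisons that involve PB livers. In PB against control, 12 of 38 genes lay above 0, beside 49.0% of all tested genes, and the median log2 difference was -0.10, beside -0.0052 over all genes. In DCA against control, 19 of 38 lay above 0, beside 49.0% of all genes, with a median of -0.0031 and an all-gene median of -0.0055. In DCA against PB, 24 of 38 lay above 0, beside 49.5%, and 14 lay below 0, beside 50.5%, with a median of 0.10 and an all-gene median of -0.0041. The size of this split depended on the scaling of the arrays. With cyclic loess normalization, 12, 19 and 24 of the 38 genes lay above 0 in the same order, with medians of -0.09, -0.01 and 0.08. With each array scaled by its 75th percentile in place of quantile normalization, 3, 19 and 34 of the 38 genes lay above 0 in these comparisons, with medians of -0.29, -0.01 and 0.26. The all-gene medians under that scaling were 0.02, -0.04 and -0.05. Without PB replicate 1, the median for DCA against PB was 0.0239 and that for PB against control was -0.086. The comparisons share groups, so they do not count as separate evidence.

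**Figure D1:**
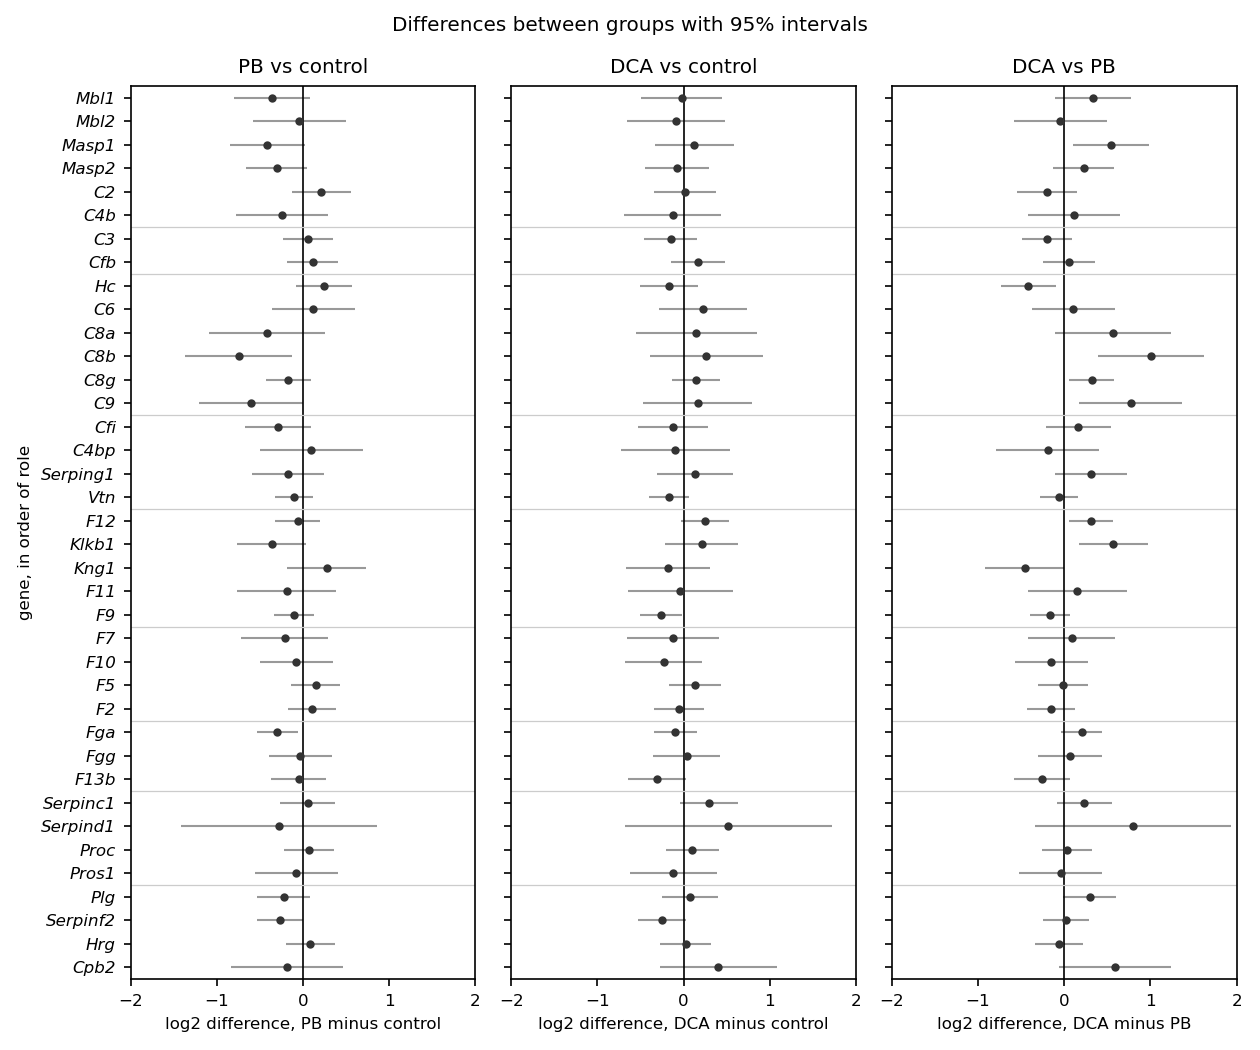
Difference in log2 intensity for the 38 tested genes, in order of role, for PB minus control, DCA minus control and DCA minus PB (points, with 95% intervals from limma). Most intervals cross 0. The widest is that of Serpind1, and C8b, Klkb1, C9 and Masp1 lie farthest to the right of 0 among those whose intervals exclude 0 in DCA minus PB.

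The intervals show what sizes of change the data allow. For PB against control, 34 of 38 intervals lay inside a log2 range of -1 to 1, beside 89.7% of all genes. For DCA against control the count was 36, beside 90.1%, and for DCA against PB it was 33, beside 87.0%. Inside the narrower range of -0.5 to 0.5 the counts fell to 14, 14 and 11 of 38, beside 40.2%, 40.4% and 36.1% of all genes. Changes of 2-fold or more thus lay outside most of the intervals, while smaller shifts were not resolved with 4 or 5 mice a group. The median SD within groups was 0.26 for the 38 genes and 0.27 for all tested genes.

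**Figure D2:**
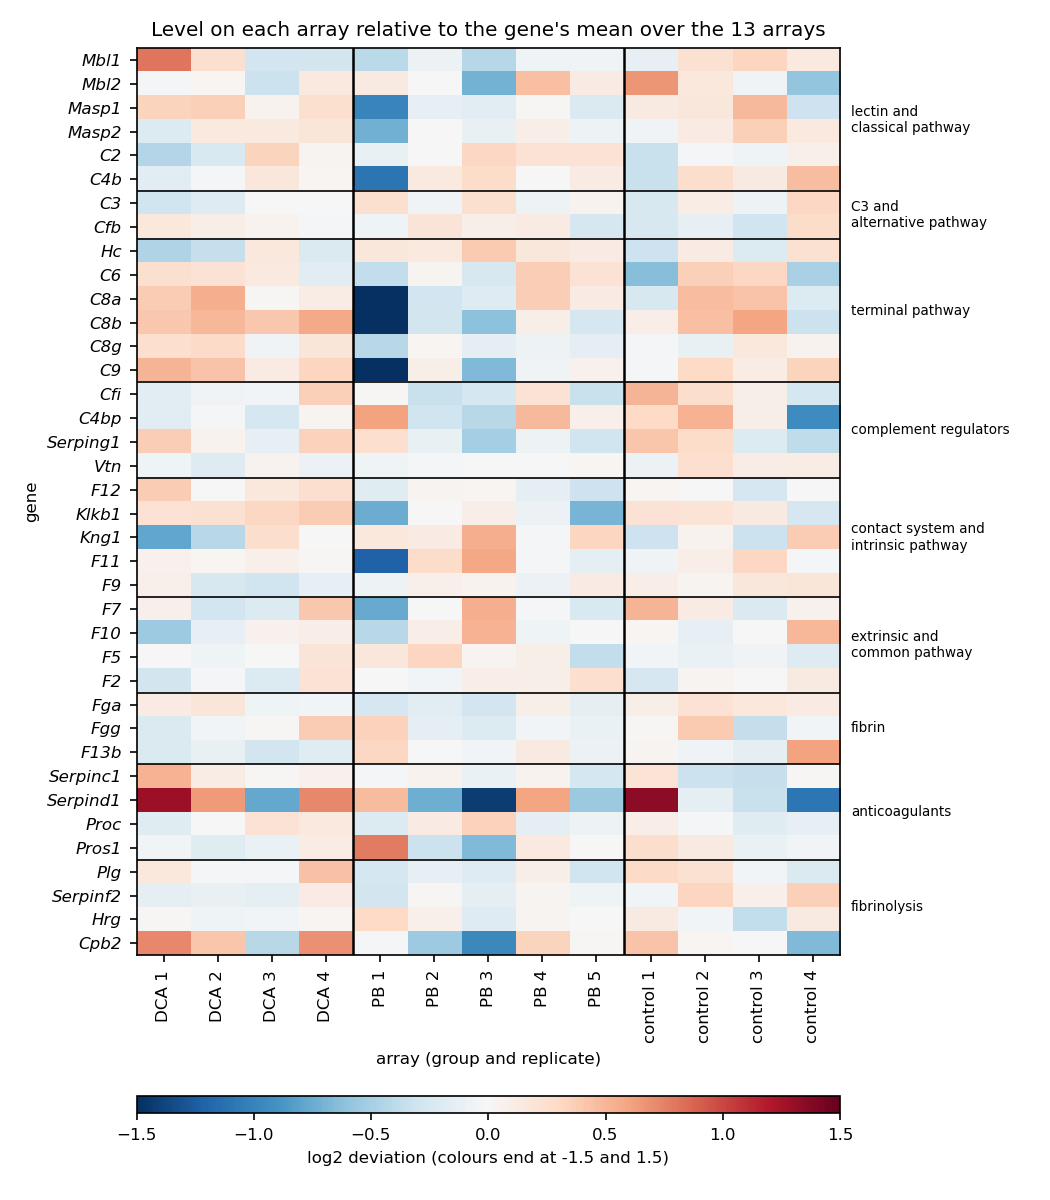
Log2 intensity of the 38 tested genes on each array, as the deviation from the gene's own mean over 13 arrays. Rows are grouped by role and columns run over DCA, PB and control arrays. The dark blue cells of PB replicate 1 mark C8a, C8b and C9, and the row with the strongest contrasts is Serpind1.

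The terminal pathway assembles the membrane attack complex from C5 (gene Hc), C6, C7, the 3 chains of C8 and C9, which polymerises into the pore. The gene C7 is not in the set and was not found in the intensity table. Of the 6 tested genes of this pathway, 4 had an unadjusted p under 0.05 in DCA against PB, beside 18.4% of the 38 genes and 14.5% of all genes. These were C8b, C9 and C8g, higher in DCA livers, and Hc, lower in DCA livers. Without PB replicate 1, C8g had an unadjusted limma p of 0.0527. C8b, the beta chain of C8, measured 11.30, 11.40, 11.31 and 11.47 log2 units in DCA livers, 9.26, 10.63, 10.29, 10.99 and 10.65 in PB livers, and 11.01, 11.35, 11.50 and 10.57 in control livers. Every DCA array was above every PB array, while control arrays overlapped both. The difference between DCA and PB livers was 1.01 ± 0.29 (SE), or 2.01-fold, with a 95% interval of 0.39 to 1.63 and a limma adjusted p of 0.182. For PB against control it was -0.74 ± 0.29 (adjusted p = 0.424), and for DCA against control 0.26 ± 0.30 (adjusted p = 0.995). Without PB replicate 1, the lowest array, the estimates for DCA against PB and for PB against control were 0.73 ± 0.20 and -0.47 ± 0.20.

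C9 followed a like pattern on the arrays. Its values were 11.13, 11.05, 10.75 and 10.95 in DCA livers, 9.07, 10.71, 9.97, 10.57 and 10.69 in PB livers, and 10.61, 10.93, 10.74 and 10.96 in control livers. DCA and PB arrays did not overlap, though the lowest DCA array was only just above the highest PB array, and PB replicates 1 and 3 were the low ones. The log2 difference between DCA and PB was 0.77 ± 0.28 (adjusted p = 0.249), and that between PB and control was -0.61 ± 0.28 (adjusted p = 0.494). Leaving out PB replicate 1 gave 0.49 ± 0.17 and -0.32 ± 0.17.

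C8a, the alpha chain of C8, read 10.32, 10.49, 9.97 and 10.06 in DCA livers, 8.44, 9.65, 9.75, 10.31 and 10.06 in PB livers, and 9.71, 10.41, 10.38 and 9.75 in control livers. The groups overlapped, and PB replicate 1 was more than a unit below every other array. The difference of 0.57 ± 0.31 between DCA and PB (adjusted p = 0.417) was 0.27 ± 0.21 without that array. C8g, the gamma chain, is a lipocalin outside the pore-forming family and differed by 0.32 ± 0.12 between DCA and PB (adjusted p = 0.266), with overlapping groups. Without PB replicate 1 that difference was 0.25 ± 0.12.

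Hc went the other way. Its values were 11.42, 11.52, 12.02 and 11.65 in DCA livers, 12.03, 12.01, 12.26, 12.04 and 11.99 in PB livers, and 11.55, 11.99, 11.65 and 12.09 in control livers. PB arrays were close together and above 3 of the 4 DCA arrays. The log2 difference between DCA and PB was -0.41 ± 0.15 (adjusted p = 0.249), and leaving out PB replicate 1 gave -0.42. With 75th percentile scaling in place of quantile normalization it was -0.19 (limma adjusted p = 0.56). C6 differed by at most 0.23 in size in any comparison.

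C8a and C8b are neighbouring genes on chromosome 4, and their promoters are shown because the pair varied together over the arrays (r = 0.90, and 0.72 without PB replicate 1). The sequences are RefSeq promoter windows of GRCm38.p6, 250 bases before to 50 after the annotated start, read 5′ to 3′ on the strand of the gene. Capitals mark matches to GTTAAT or its reverse complement ATTAAC, letters of an HNF1 half-site. C8b spans chr4:104766067-104766366 on the + strand, with the match at position -206 from the start. C8a spans chr4:104876349-104876648 on the - strand, with the match at position -107.
C8b: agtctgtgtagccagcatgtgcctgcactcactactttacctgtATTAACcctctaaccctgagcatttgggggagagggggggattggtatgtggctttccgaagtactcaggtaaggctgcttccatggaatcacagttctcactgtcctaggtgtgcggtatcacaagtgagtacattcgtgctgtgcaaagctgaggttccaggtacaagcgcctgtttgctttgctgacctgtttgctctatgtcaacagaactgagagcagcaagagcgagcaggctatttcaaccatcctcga
C8a: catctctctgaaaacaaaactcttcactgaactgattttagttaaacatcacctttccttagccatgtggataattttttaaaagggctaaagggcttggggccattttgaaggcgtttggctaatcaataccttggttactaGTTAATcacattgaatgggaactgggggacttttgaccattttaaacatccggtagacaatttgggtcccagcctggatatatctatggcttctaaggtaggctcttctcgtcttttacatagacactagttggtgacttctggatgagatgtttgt

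**Figure D3:**
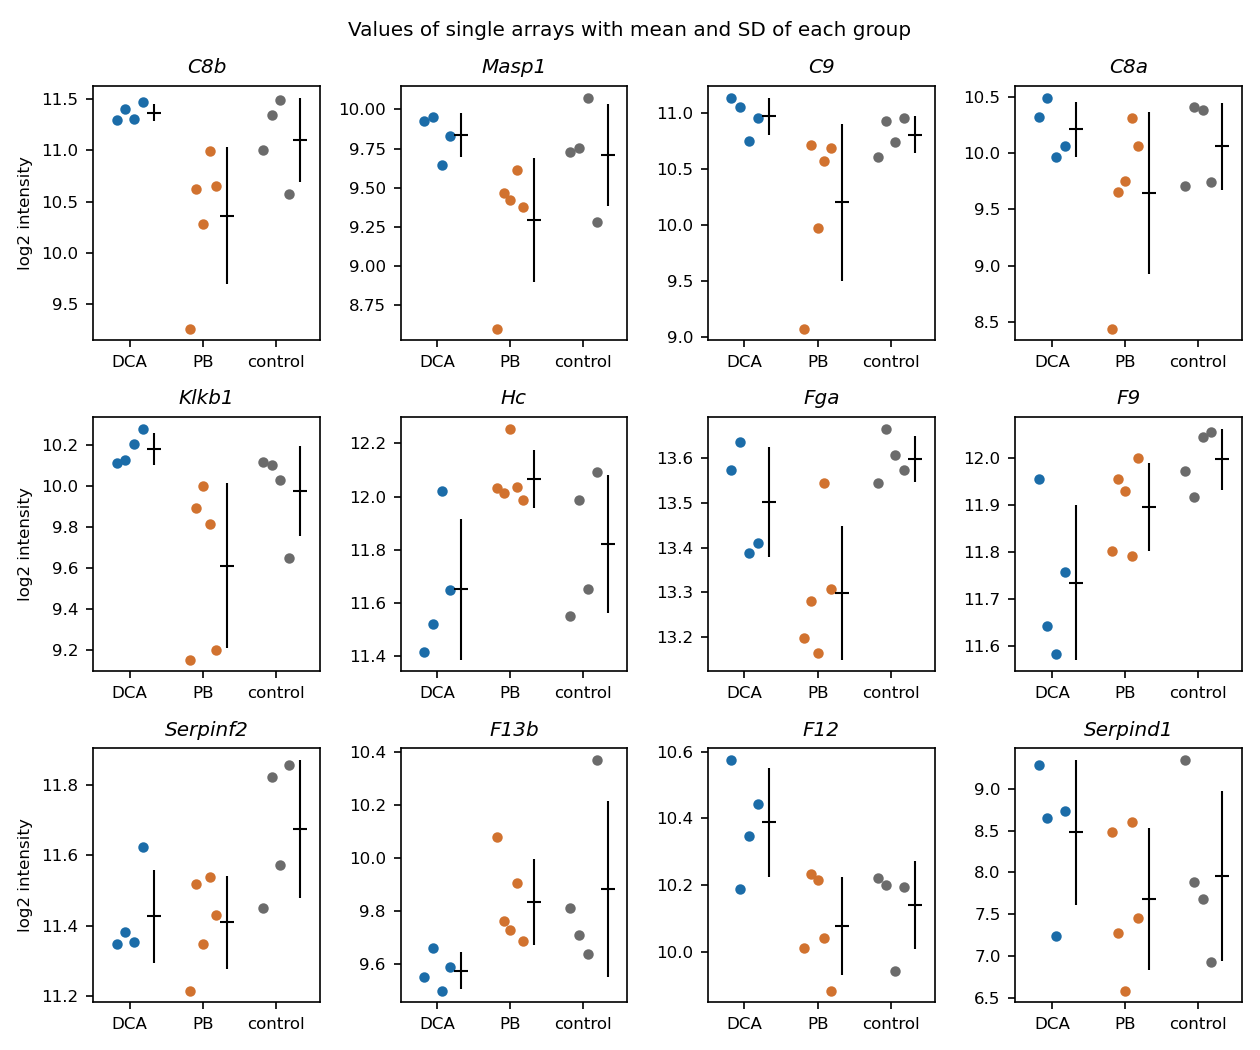
Log2 intensity of 12 genes on single arrays of DCA, PB and control livers (points), with the mean and SD of each group beside them (dash and line). Vertical scales differ between panels. C8b, C9, Masp1 and Klkb1 show DCA arrays above all PB arrays, and PB replicate 1, the leftmost PB point, is the lowest point for C8b, Masp1, C9, C8a and Klkb1.

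The lectin and classical pathways start complement from bound carbohydrate or antibody. Mbl1 and Mbl2 are mannose-binding lectins, Masp1 and Masp2 their serine proteases, and C2 and C4b supply the parts of the C3 convertase. Masp1 measured 9.92, 9.95, 9.64 and 9.83 in DCA livers, 8.60, 9.46, 9.42, 9.61 and 9.37 in PB livers, and 9.73, 9.76, 10.08 and 9.28 in control livers. All DCA arrays were above all PB arrays by a narrow margin, and control arrays overlapped both groups. The log2 difference between DCA and PB was 0.54 ± 0.20 (adjusted p = 0.26), and 0.37 ± 0.16 without PB replicate 1.

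The other 5 genes of these pathways had differences between -0.36 and 0.33 in every comparison, and none had an unadjusted p under 0.05. For PB against control, Mbl1 differed by -0.36 ± 0.21 and Masp2, detected on 12 of 13 arrays, by -0.31 ± 0.17 (-0.17 without PB replicate 1), while C2 differed by 0.21 ± 0.16. C4b read 12.11, 12.24, 12.43 and 12.29 in DCA livers, 11.16, 12.40, 12.54, 12.26 and 12.38 in PB livers, and 11.93, 12.52, 12.40 and 12.73 in control livers. PB replicate 1 lay below every other array, and the difference of -0.25 between PB and control was 0.00 without it. C4b has a near-identical neighbour in the mouse, C4a, so its signal may hold both. C4a has an entry of its own, detected on 3 of 13 arrays, and its part in the C4b signal was not tested.

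C3, the central component that all activation routes cleave, and Cfb, the protease of the alternative pathway, varied little. C3 differed by 0.05 ± 0.13 between PB and control, -0.15 ± 0.14 between DCA and control and -0.20 ± 0.13 between DCA and PB. For Cfb the values were 0.11 ± 0.14, 0.17 ± 0.15 and 0.06 ± 0.14. Groups overlapped for both genes. The complement regulators are Cfi, which cleaves C3b and C4b, its cofactor C4bp, the C1 inhibitor Serping1, and vitronectin (Vtn), which binds the terminal complex. Their differences ran between -0.29 (Cfi, PB against control) and 0.31 (Serping1, DCA against PB), and 0 of the 4 had an unadjusted p under 0.05. C4bp varied most among them, between 9.23 on control replicate 4 and 10.77 on PB replicate 1.

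The contact system and intrinsic pathway start coagulation on charged surfaces through F12, prekallikrein (Klkb1) and kininogen (Kng1), which feed F11 and F9. Klkb1 measured 10.12, 10.13, 10.21 and 10.28 in DCA livers, 9.15, 9.89, 10.00, 9.82 and 9.20 in PB livers, and 10.12, 10.10, 10.03 and 9.65 in control livers. DCA arrays were tightly grouped above all PB arrays, and PB replicates 1 and 5 were the low ones. The log2 difference between DCA and PB was 0.57 ± 0.19 (adjusted p = 0.216), and 0.46 ± 0.17 without PB replicate 1.

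F12 read 10.58, 10.19, 10.35 and 10.44 in DCA livers, 10.01, 10.23, 10.22, 10.04 and 9.88 in PB livers, and 10.22, 10.20, 9.94 and 10.20 in control livers. In DCA livers 3 of 4 arrays were above all others. The differences were 0.31 ± 0.12 for DCA against PB (adjusted p = 0.273) and 0.25 ± 0.13 for DCA against control (adjusted p = 0.995).

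F9, the factor missing in haemophilia B, was the gene with the smallest unadjusted p in DCA against control. It measured 11.96, 11.64, 11.58 and 11.76 in DCA livers, 11.80, 11.96, 11.93, 11.79 and 12.001 in PB livers, and 11.97, 11.92, 12.05 and 12.05 in control livers. DCA replicate 1 was within the control range, and the other DCA arrays were below all control arrays. The difference between DCA and control was -0.26 ± 0.11, with an unadjusted p of 0.0379 and an adjusted p of 0.995.

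Kng1 had 12.50, 12.87, 13.55 and 13.28 log2 units in DCA livers, 13.45, 13.41, 13.82, 13.25 and 13.61 in PB livers, and 12.97, 13.33, 12.96 and 13.67 in control livers. The difference between DCA and PB was -0.46 ± 0.21 (adjusted p = 0.348), and the groups overlapped. The mouse has a near-identical second kininogen gene, so this signal may hold both. F11 ranged from 7.94 on PB replicate 1 to 9.73 on PB replicate 3, with a PB mean of 9.05 ± 0.68 (SD, n = 5) against 9.24 ± 0.16 in control livers (n = 4). The difference of -0.19 ± 0.27 between PB and control was 0.09 without PB replicate 1. F11 was detected on 11 of 13 arrays.

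The extrinsic and common pathway runs from F7 through F10 and its cofactor F5 to prothrombin (F2). None of these 4 genes had an unadjusted p under 0.05, and their differences ran between -0.23 (F10, DCA against control) and 0.15 (F5, PB against control). F7 was lowest on PB replicate 1 at 8.48 and highest on PB replicate 3 at 9.78, so both ends of its range were PB arrays. F10 and F7 are neighbouring genes on chromosome 8 (r = 0.52 over the arrays, and 0.36 without PB replicate 1).

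Fibrinogen is built of 3 chains, and F13b carries the transglutaminase that crosslinks fibrin. Fga, the alpha chain, read 13.57, 13.64, 13.39 and 13.41 in DCA livers, 13.20, 13.28, 13.16, 13.55 and 13.31 in PB livers, and 13.55, 13.67, 13.61 and 13.57 in control livers. In PB livers 4 of 5 arrays were below every control array, and PB replicate 4 reached the lowest control value. The difference between PB and control was -0.30 ± 0.11, with an adjusted p of 0.403, the smallest among the 38 genes in that comparison. Without PB replicate 1 it was -0.27 ± 0.12. Fgg, the gamma chain, differed by at most 0.07 in size in any comparison.

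Fgb, the beta chain, was not above background on any of the 13 arrays. Its raw intensity was 86.7 to 115.1, and it was left out of every test. Fga and Fgg were detected on all 13 arrays, and no level of Fgb is given here. F13b measured 9.55, 9.66, 9.50 and 9.59 in DCA livers, 10.08, 9.76, 9.73, 9.91 and 9.69 in PB livers, and 9.81, 9.71, 9.64 and 10.37 in control livers. All DCA arrays were below all PB arrays and control arrays overlapped both. The difference was -0.26 ± 0.15 for DCA against PB (adjusted p = 0.442) and -0.31 ± 0.16 for DCA against control (adjusted p = 0.995). For DCA against PB it was -0.20 ± 0.15 without PB replicate 1.

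Between DCA and PB livers, the groups did not overlap for 5 of 38 genes (13.2%): C8b, Klkb1, C9, Masp1 and F13b. Over all tested genes the share was 5.98%. The count was 0 of 38 for PB against control (3.48% of all genes) and 0 of 38 for DCA against control (2.41%).

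Among the anticoagulants, antithrombin (Serpinc1) and heparin cofactor II (Serpind1) inhibit thrombin, while protein C (Proc) and its cofactor protein S (Pros1) inactivate the coagulation cofactors. Serpind1 had the largest SD over the 13 arrays of the 38 genes, 0.90 log2 units. Its lowest raw intensity, 136 units, was near the 86.7 to 115.1 of Fgb, which was not above background. Serpind1 was detected on all 13 arrays. It measured 9.29, 8.65, 7.25 and 8.73 in DCA livers, 8.48, 7.28, 6.59, 8.60 and 7.45 in PB livers, and 9.35, 7.88, 7.68 and 6.93 in control livers. High and low arrays occurred in every group, and the groups overlapped. The differences were -0.28 ± 0.53 for PB against control, 0.52 ± 0.56 for DCA against control and 0.80 ± 0.53 for DCA against PB, with adjusted p-values of 0.916, 0.995 and 0.498. The sign for PB against control depended on control replicate 1, without which it was 0.18. Serpinc1 differed by 0.29 ± 0.16 between DCA and control, and Proc and Pros1 by at most 0.12 in size in any comparison.

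Fibrinolysis is driven by plasmin from plasminogen (Plg) and opposed by alpha-2-antiplasmin (Serpinf2) and by carboxypeptidase B2 (Cpb2), while histidine-rich glycoprotein (Hrg) binds plasminogen and heparin. Serpinf2 read 11.35, 11.38, 11.36 and 11.62 in DCA livers, 11.22, 11.52, 11.35, 11.54 and 11.43 in PB livers, and 11.45, 11.82, 11.57 and 11.86 in control livers. In DCA livers 3 of 4 arrays were below all control arrays, and PB arrays overlapped control arrays. The differences were -0.27 ± 0.12 for PB against control (adjusted p = 0.494) and -0.25 ± 0.13 for DCA against control (adjusted p = 0.995). Leaving out PB replicate 1, the lowest array, gave -0.22 ± 0.13 for PB against control.

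Cpb2 measured 9.34, 9.04, 8.21 and 9.31 in DCA livers, 8.59, 8.08, 7.66, 8.96 and 8.64 in PB livers, and 9.06, 8.65, 8.62 and 7.96 in control livers. DCA replicate 3, PB replicate 3 and control replicate 4 were the low arrays of their groups, as they were for Serpind1. They also had the lowest mean raw intensity of their groups, at 232, 189 and 234 units. The log2 difference between DCA and PB was 0.59 ± 0.30 (adjusted p = 0.383). Plg differed by 0.30 ± 0.14 in that comparison (adjusted p = 0.358), and Hrg by at most 0.08 in size in any.

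Covariation over the 13 arrays was examined for all 703 pairs of tested genes, by Pearson's r and Spearman's rho with permutation p-values (100000 draws, two-sided) adjusted by Benjamini-Hochberg over the pairs. Of these, 21 pairs passed an adjusted p of 0.05 for r, 4 for rho and 4 for both. All 4 correlated positively. Serpind1 and Cpb2 had r = 0.93 and rho = 0.94 (adjusted permutation p = 0.00469 and 0.0176). Masp1 and C8b had r = 0.96 and rho = 0.92 (adjusted permutation p = 0.00351 and 0.0176). For C3 and Kng1 the values were 0.87 and 0.88 (adjusted permutation p = 0.0197 and 0.0281), and for Serping1 and Serpind1 they were 0.87 and 0.91 (adjusted permutation p = 0.0272 and 0.0234). C3 and Kng1 each correlated with the log2 mean raw intensity of the arrays as well (r = -0.86 and -0.95).

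With the 2 arrays farthest from the median of the first gene left out, r was 0.93 for Serpind1 and Cpb2, 0.88 for Masp1 and C8b, 0.81 for C3 and Kng1 and 0.80 for Serping1 and Serpind1. Within groups, after each group's mean was removed, r was 0.92, 0.93, 0.85 and 0.85. Without PB replicate 1, r was 0.94, 0.89, 0.89 and 0.87. Of 68 pairs that share a role, 0 were among the 4, and the median r was 0.13 for pairs of the same role and 0.04 for the others. C8a and C8b had r = 0.90 (adjusted permutation p = 0.0351) but rho = 0.73 (adjusted permutation p = 0.13), and r fell to 0.69 without the 2 arrays farthest from the median and to 0.72 without PB replicate 1. Other pairs of the terminal pathway and the lectin proteases depended more on that array. Without it r was 0.25 in place of 0.78 for Masp2 and C9, 0.34 in place of 0.80 for Masp2 and C8a, 0.36 in place of 0.77 for Masp1 and Masp2, 0.44 in place of 0.81 for Masp1 and C9, 0.48 in place of 0.85 for C8a and C9, and 0.39 in place of 0.71 for C8a and C8g.

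**Figure D4:**
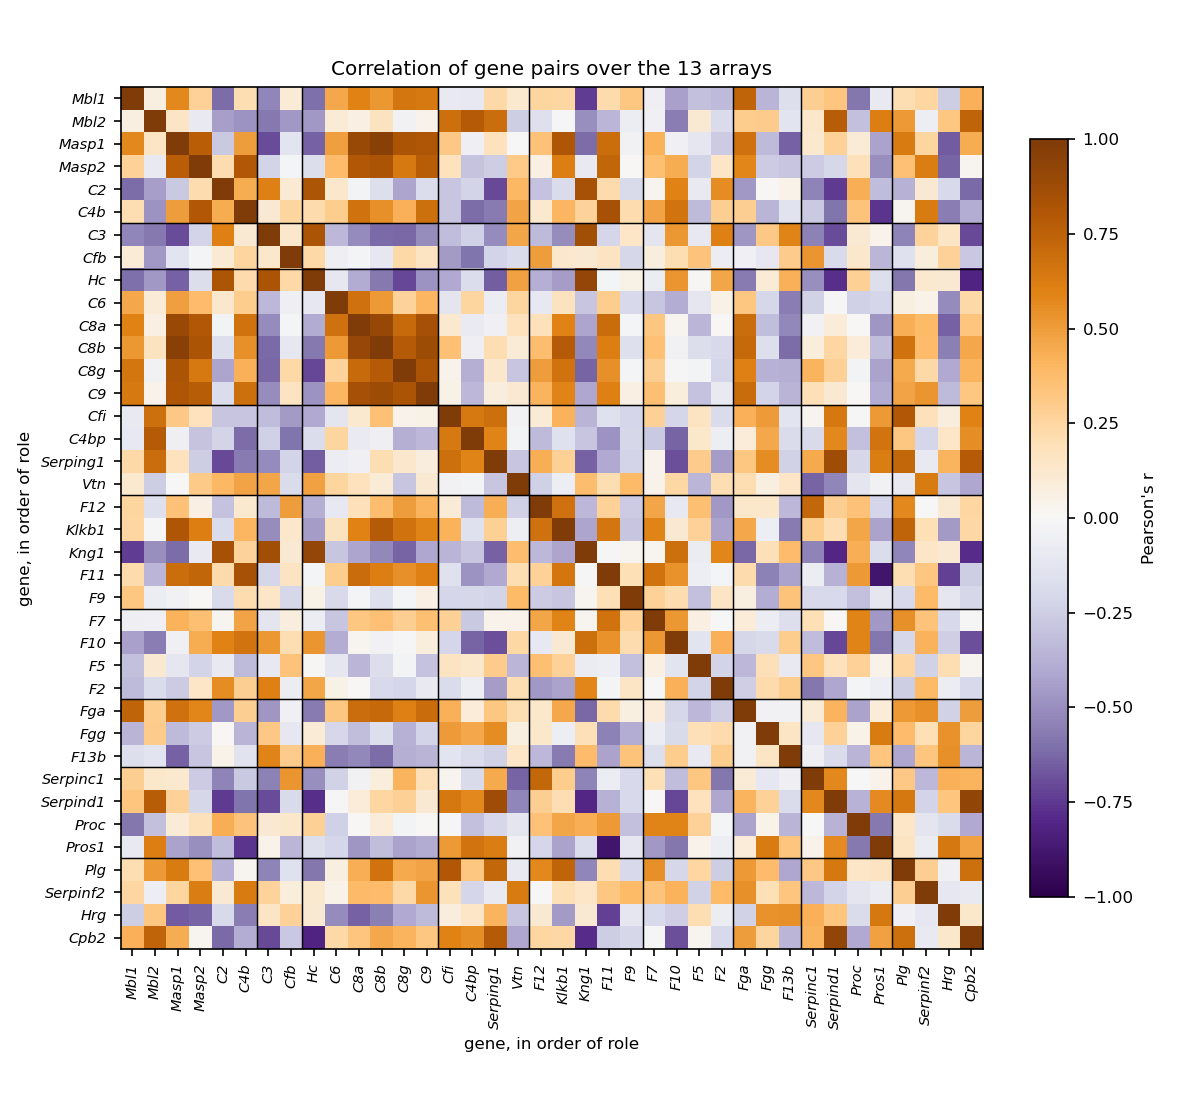
Pearson's r over the 13 arrays for each pair of the 38 tested genes, in order of role, with lines between roles. Brown squares are positive and purple squares negative. The brown block in the terminal pathway joins C8a, C8b, C8g and C9, and extends to Masp1 and Masp2. Without PB replicate 1 many of these values fall, as to 0.25 for Masp2 and C9 and 0.39 for C8a and C8g.

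Neighbouring genes gave mixed values. Of the 39 genes, 6 adjacent pairs share a chromosomal place in the GRCm38.p6 gene table, and 5 have both genes tested. Beside C8a with C8b, r was 0.66 for F11 and Klkb1 on chromosome 8, 0.52 for F7 and F10 on chromosome 8, 0.10 for Cfb and C2 on chromosome 17 and -0.04 for Fgg and Fga on chromosome 3 (adjusted permutation p between 0.175 and 0.965 for these 4). For F11 and Klkb1, r was -0.05 without the 2 arrays farthest from the median of Klkb1, and 0.29 without PB replicate 1. For F7 and F10, r was 0.10 without the 2 arrays farthest from the median of F7, and 0.36 without PB replicate 1.

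Serpind1 and Cpb2 lie on different chromosomes, and their promoter windows are shown as those of the pair with the highest rho. Serpind1 spans chr16:17331121-17331420 and Cpb2 chr14:75242037-75242336, both on the + strand of GRCm38.p6. Capitals mark a match to TTGCNNAA or its reverse complement, letters of a C/EBP site, which begins at position 8 after the Cpb2 start. No match to any of the motifs searched is in the Serpind1 window.
Serpind1: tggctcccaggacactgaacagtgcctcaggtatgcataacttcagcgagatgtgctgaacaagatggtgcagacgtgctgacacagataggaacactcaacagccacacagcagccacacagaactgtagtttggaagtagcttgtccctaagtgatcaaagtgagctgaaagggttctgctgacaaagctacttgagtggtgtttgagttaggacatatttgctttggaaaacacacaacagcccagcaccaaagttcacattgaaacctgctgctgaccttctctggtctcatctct
Cpb2: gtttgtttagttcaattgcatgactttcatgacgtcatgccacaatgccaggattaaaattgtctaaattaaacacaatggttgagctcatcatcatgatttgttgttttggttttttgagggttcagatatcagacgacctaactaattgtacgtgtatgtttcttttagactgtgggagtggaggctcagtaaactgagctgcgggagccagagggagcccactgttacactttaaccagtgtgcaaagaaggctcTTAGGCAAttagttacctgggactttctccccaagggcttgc

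Promoter windows of the same length were present for 30 of the 39 genes, 31 windows in all. The letters GTTAAT were found on either strand in 9 of the 31 (29%), those of C4bp, C8a, C8b, F13b, F2, Fga, Fgb, Hc and Vtn, beside 7.1% of all 32851 windows. TTGCNNAA was found in 10 (32.3%), those of C3, C9, Cpb2, F11, F9, Fga, Fgb, Hrg, Klkb1 and Serpinc1, beside 10.8% of all. AAAGTCCA, letters of an HNF4 site, was found in 0, beside 1.25% of all. HNF1, C/EBP and HNF4 proteins are transcription factors of hepatocytes. In the 4 windows printed here no match overlapped another.

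Several genes moved with measures of the arrays themselves. Each of the 38 genes was compared with mean raw intensity, the mean of an acute phase list and the mean of the hepatocyte markers, 114 relations in all, adjusted together. Kng1 correlated with log2 mean raw intensity at r = -0.95 and rho = -0.94 (adjusted permutation p = 0.00057 and 0.00228), and C3 at r = -0.86 and rho = -0.87 (adjusted permutation p = 0.00456 and 0.0103). Without the 2 arrays farthest from the median, r was -0.92 and -0.84, within groups -0.95 and -0.88, and without PB replicate 1 -0.95 and -0.86. The raw intensity of Kng1 ran only between 8517 and 12630 over arrays, while mean raw intensity ran between 232 and 462 on DCA arrays, 189 and 356 on PB arrays, and 234 and 388 on control arrays. Hc passed for r only, with r = -0.82 and rho = -0.72 (adjusted permutation p = 0.0259 and 0.091). Masp1 and C8g passed for rho only, at 0.79 and 0.78 (adjusted permutation p = 0.0375 for each). Serpind1 and Cpb2 did not pass, with r = 0.71 and 0.70 (adjusted permutation p = 0.075 for each). The part of array brightness in the group differences of these genes was not tested. Nor was its part in the correlations of C3 with Kng1 and of Serpind1 with Cpb2.

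**Figure D5:**
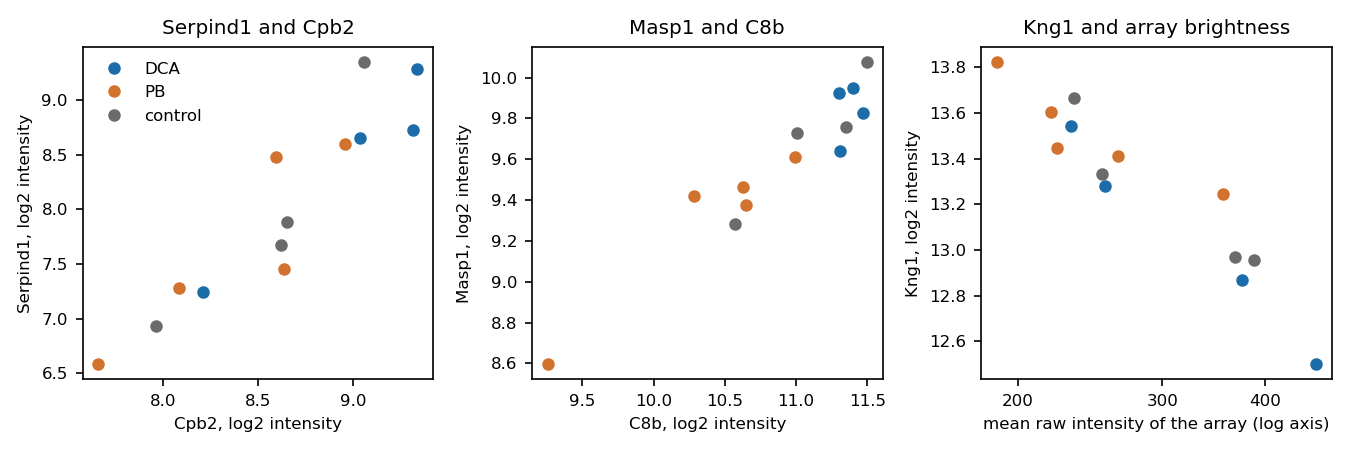
Log2 intensity of Serpind1 against Cpb2 (left), Masp1 against C8b (middle) and Kng1 against the mean raw intensity of the array on a log axis (right), with 1 point for each of 13 arrays coloured by group. Arrays of every group lie along each trend, and the isolated point at low C8b is PB replicate 1.

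With the hepatocyte marker mean, 3 genes correlated by both r and rho after adjustment. That mean is over 6 genes, and 1 of them, Trf, had an SD of 0.55 in DCA, 0.73 in PB and 0.87 in control livers. How far single markers carried these correlations was not tested. C4b had r = -0.87 and rho = -0.90 (adjusted permutation p = 0.00057 and 0.00456). Serpind1 had r = 0.78 and rho = 0.79 (adjusted permutation p = 0.0347 and 0.0375), and Serping1 r = 0.77 and rho = 0.78 (adjusted permutation p = 0.0445 and 0.0375). Without the 2 arrays farthest from the median, r was -0.81, 0.86 and 0.77, and without PB replicate 1 it was -0.86, 0.88 and 0.81. Vtn passed for rho only, with r = -0.61 and rho = -0.80 (adjusted permutation p = 0.132 and 0.0375). None of the 38 genes correlated with the acute phase mean at an adjusted p under 0.05.

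PB replicate 1 was the lowest of the 13 arrays for 12 of the 38 genes, C8a, C8b, C8g, C9, Masp1, Masp2, C4b, Klkb1, F11, F7, Proc and Serpinf2, and the highest for 3, Pros1, C4bp and Hrg. On other arrays the number of lowest genes was 0 to 7. Leaving it out, 6 of the 38 genes had an unadjusted p under 0.05 for DCA against PB (15.8%, beside 16.5% of all genes) and 2 for PB against control (5.26%, beside 11.4%). The part of the cell makeup of that liver piece in its low values was not tested. Other arrays moved the unadjusted counts for DCA against PB as well. There were 4 such genes without DCA replicate 1 and 13 without DCA replicate 3, where the shares of all genes were 10.5% and 17.9%, and there were 12 (31.6%) without PB replicate 4, beside 15.5% of all genes. For PB against control the counts ran from 1 (2.63%) without control replicate 2, beside 10.2% of all genes, to 6 (15.8%) without control replicate 4, beside 9.03%. There were 2 each (5.26%) without control replicate 3, DCA replicate 2 and DCA replicate 3, beside 8.79% to 10.3% of all genes. For DCA against control there were 2 (5.26%) without control replicate 1, beside 8.43% of all genes. No gene of the set was called by limma after adjustment when any array was left out.

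Other genes of the same systems, which include receptors, cell-bound regulators and factors made outside hepatocytes, gave no call either. Of 40 such genes 36 were in the table and 17 were tested, and 0 passed an adjusted p of 0.05 in any comparison. Plau, the urokinase that activates plasminogen, averaged 4.86 ± 0.14 in PB livers and 4.50 ± 0.04 in control livers (SD, n = 5 and 4), a difference of 0.36 ± 0.11 (adjusted p = 0.297). These levels were near background, as Fgb, detected on no array, read 4.22 to 4.42. C1s, the protease of the C1 complex, averaged 6.11 ± 0.44 in PB livers and 5.40 ± 0.51 in control livers (adjusted p = 0.434). C1r was not detected on any array.

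Genes of the acute phase, which share inducers with several complement genes, lay below 0 for 15 of 18 in PB against control and for 15 of 18 in DCA against control, with medians of -0.36 and -0.30, and 0 were called. All genes tested had 51.0% below 0 in each of these comparisons, which share the control arrays. Fgl1, a fibrinogen-like protein of the liver, averaged 11.40 ± 0.60 in PB livers and 12.19 ± 0.13 in control livers (adjusted p = 0.394). The acute phase mean ran between 10.55 and 11.10 on DCA arrays, 10.34 and 11.44 on PB arrays, and 10.74 and 11.67 on control arrays, with the highest value on control replicate 2, which also had the highest Kupffer cell mean (7.66). Of the 11 tested regulators upstream of these genes 0 were called, and in DCA against PB 7 of the 11 lay below 0, with a median of -0.10. Cebpb, a C/EBP factor of the acute phase, averaged 11.34 ± 0.41 in DCA livers and 10.54 ± 0.16 in PB livers, a difference of 0.80 ± 0.25 (adjusted p = 0.205). Cebpa differed by 0.90 ± 0.35 in the same comparison (adjusted p = 0.272). Socs3, an inhibitor of cytokine signalling, averaged 6.34 ± 0.33 in DCA livers and 7.04 ± 0.57 in PB livers, a difference of -0.70 ± 0.28 (adjusted p = 0.277).

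Markers of other cell types gave no call in any comparison. Erythroid markers had the lowest medians, -0.86 for PB against control and -0.97 for DCA against control over 4 tested genes. In each of these comparisons, which share the control arrays, 3 of the 4 had an unadjusted p under 0.05 and were lower, Slc4a1, Hbb-b1 and Hba-a1. Of all tested genes, 5.43% were lower at that threshold in PB against control and 2.12% in DCA against control. Alas2, the other tested marker, lay below 0 in PB against control and above 0 in DCA against control, without passing that threshold. Between DCA and PB livers Alas2 differed by 0.94 ± 0.40 (limma adjusted p = 0.311). Hbb-b1, a globin gene, differed by -0.96 ± 0.29 between PB and control (adjusted p = 0.29) and by -1.12 ± 0.30 between DCA and control (adjusted p = 0.995). The list mean ran between 8.19 and 8.90 on DCA arrays, 7.90 and 8.93 on PB arrays and 8.89 and 9.56 on control arrays. Platelet markers, which come from cells that carry some coagulation proteins, had means of 4.70 to 4.74 on DCA arrays, 4.70 to 5.04 on PB arrays and 4.65 to 7.24 on control arrays. Neutrophil marker means were 4.85 to 5.53 on DCA arrays, 5.02 to 5.73 on PB arrays and 4.64 to 6.75 on control arrays, and Ngp and Mmp8 of that list were not detected. The part of blood cells in the differences between groups was not tested.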

How the data were processed

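Intensity values per gene on a linear scale and their detection p-values were deposited by the authors. The submitters' processing notes name GenomeStudio, without a version. A second table of intensity values that the authors had normalized, by steps not given in the sources used here, served as an alternative; its columns had medians of 107 to 107.7. Groups were taken from the labels.

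Background was corrected with the normexp model from detection p-values, fitted on the 13668 rows of single probes (offset 16). The fit on these rows was a choice made after the files had been looked at, because 4470 rows hold combined p-values. Quantile normalization of log2 values followed; a trial on the linear scale had been run before that choice, and its result is among the alternatives. Genes detected (p-value under 0.05) on 4 or more arrays entered the test in limma 3.58.1 in R 4.3.3 (group means over all 13 arrays, eBayes, two-sided, Benjamini-Hochberg over 8431 genes, threshold 0.05). The fit was tested on simulated data. Alternatives changed the background correction, scaling, filter, weights and arrays fitted. The number of arrays limits the precision. The labels name no batch, and each array is 1 mouse.

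Errors are SE for differences and SD for group means. Values of every array are given for genes with the 4 smallest p-values of a comparison or the 3 largest SDs; Masp1, C8a, C4b, Kng1 and Cpb2 were added after their values were seen. Correlations, motifs, printed promoters and plotted genes were also chosen after values were seen. The set of genes and all lists were chosen with earlier results of these data known. Sequences and gene order come from RefSeq tables of GRCm38.p6, where all 39 symbols matched. Correlations used numpy 2.4.6 and scipy 1.17.1.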

Additional observations from a re-analysis of the deposited data

Results flagged for a closer look

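A sample far from the others of its group was looked for with Dixon's criterion in 114 sets of values (38 genes in 3 groups). It was met in 7, where chance alone gives about 5%, so this number is close to what chance gives. PB replicate 1 was low for Masp1 (8.60, others 9.37 to 9.61), Masp2 (8.94, others 9.55 to 9.77) and C4b (11.16, others 12.26 to 12.54). PB replicate 3 was high for Hc (12.26, others 11.99 to 12.04). DCA replicate 1 was low for Masp2 (9.46, others 9.81 to 9.85), and DCA replicate 4 was high for Serpinf2 (11.62, others 11.35 to 11.38). Control replicate 3 was low for F12 (9.94, others 10.19 to 10.22).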

How the results depend on the processing

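No gene of the set was called in PB against control, DCA against control or the F test under any alternative run. In DCA against PB 1 was called with array weights, C8b (0.80, adjusted p = 0.0438), whose adjusted p ran from 0.0438 to 0.401 over 25 alternatives. Its difference ran from 0.73 to 1.22. DCA against control had 0 calls over all genes in every setting.

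Over all genes the counts were small and moved. In PB against control, 7 genes became 2 with the standard background fit on all rows, 4 without the detection filter, 12 with detection on all arrays and 2 with only the groups compared. In DCA against PB, 9 became 1 with the standard fit, 2 without background correction, 4 with an offset of 50, 2 with the authors' normalized values, 4 with cyclic loess, 0 without the filter, 298 with array weights and 16 with only the groups compared. The F test's 9 became 1 with the standard fit, without background correction, with offset 50 and with the authors' values, 0 without the filter and 52 with weights. Quantile normalization on the linear scale, added after seeing the data, gave 6 and 9 genes in PB against control and DCA against PB.

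The median of the set was -0.29 (PB against control) and 0.26 (DCA against PB) with 75th percentile scaling, and 0.0167 (DCA against PB) with array weights, where PB replicate 1 had the lowest weight (0.35). With 1 array left out, calls ran from 1 to 13 genes for PB against control, 0 to 13 for DCA against PB and 1 to 9 for the F test, and the median for DCA against PB from 0.0239 to 0.125. Serpind1 in PB against control, -0.28 with all arrays, ran from -0.62 without control replicate 4 to 0.18 without control replicate 1. Of 425 values of single genes under alternatives, 423 kept their direction and their side of the threshold. Causes were not tested. No paired analysis was possible because replicate numbers follow the order of deposit. A slide block was not run, since the files used here name no slide.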
